A study of Mus musculus with 4 samples.

Results

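The comparison was between the array labelled siTfe3/Tfeb iron and the array labelled siGFP iron, which are 2 of the 4 arrays of the study. The cells were RAW264, a macrophage-like line of the BALB/c mouse strain. They had received small interfering RNA (siRNA) directed at Tfe3/Tfeb, or at GFP, a jellyfish protein that these cells are not labelled to carry. At 48 hours after transfection 500 µM FeCl3 was added for 24 hours in both groups. The other 2 arrays, siTfe3/Tfeb and siGFP, came from cells given the same siRNAs without FeCl3, and served as a second comparison that shares no array with the first. The RNA, total RNA of each culture, was measured on Agilent mouse expression arrays after labelling with the dye Cy3, with 1 array a group. The 2 target genes were given in 1 label, so an effect of Tfe3 and one of Tfeb cannot be told apart here, and no untransfected culture was analysed here. With 1 array a side, the values below carry no replicate check, and no p-value was computed.

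Tfe3 and Tfeb belong to the MiT/TFE family of basic helix-loop-helix transcription factors, with Mitf and Tfec. They are held in the cytoplasm by mTORC1, the nutrient-sensing kinase at the lysosome surface, and enter the nucleus when it is inactive. There they bind the E-box CACGTG, and the extended form TCACGTGA is known as the CLEAR element of lysosomal and autophagy genes. In macrophages the same factors are known for roles in inflammatory gene expression, and the related Mitf and Tfe3 for roles in osteoclasts.

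Signals are the scanner's background-subtracted processed intensities. Differences are on the log2 scale, siTfe3/Tfeb iron minus siGFP iron, after each array was divided by its 75th percentile, which was 593 on the siTfe3/Tfeb iron array and 627 on the siGFP iron array. Of 24841 named genes, 14337 were well above background on the siTfe3/Tfeb iron array and 14671 on the siGFP iron array. The only error available was the spread of repeated spots of 1 probe, whose SD for a log2 difference (spot SD) was 0.0637 for the brightest probes and 0.545 for the dimmest. Differences between cultures, extractions or labellings are not in it, and the number of arrays limits the precision. Macrophage identity was checked against 24 defining genes, and 24 were above background on both iron arrays. Markers of other cells were mostly dim: 1 of 9 fibroblast, 1 of 8 epithelial, 3 of 8 endothelial and 4 of 9 lymphocyte markers on the array were above background on both.

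Tfe3 was lower on the array labelled siTfe3/Tfeb iron, and Tfeb was not lower. The bright Tfe3 probe (chrX:7352259-7352318, array design coordinates on mm9) read 7315 on the siTfe3/Tfeb iron array, against 11306 on the siGFP iron array. That is 68.4% of the siGFP iron level, a log2 difference of -0.55 with a spot SD of 0.0637. The brightest of 4 Tfeb probes (chr17:47896359-47896418) read 338 on the siTfe3/Tfeb iron array and 319 on the siGFP iron array, or 112% after scaling. The other 3 Tfeb probes stood at 94.5%, 95.9% and 90.7%, each within its spot SD of 0.383. Mitf, the family member best known from pigment cells, was at 96.6% by its brightest probe, and Tfec, a dim member, was at 103%. The Tfeb probes therefore shared no direction, and the lower Tfeb signal that the label implies was not seen on these arrays. Every direction below is that of the array labelled siTfe3/Tfeb iron. On it a lower Tfe3 signal but no lower Tfeb signal beyond spot SD was measured. The position of the probes within their transcripts was not analysed here.

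**Figure D1:**
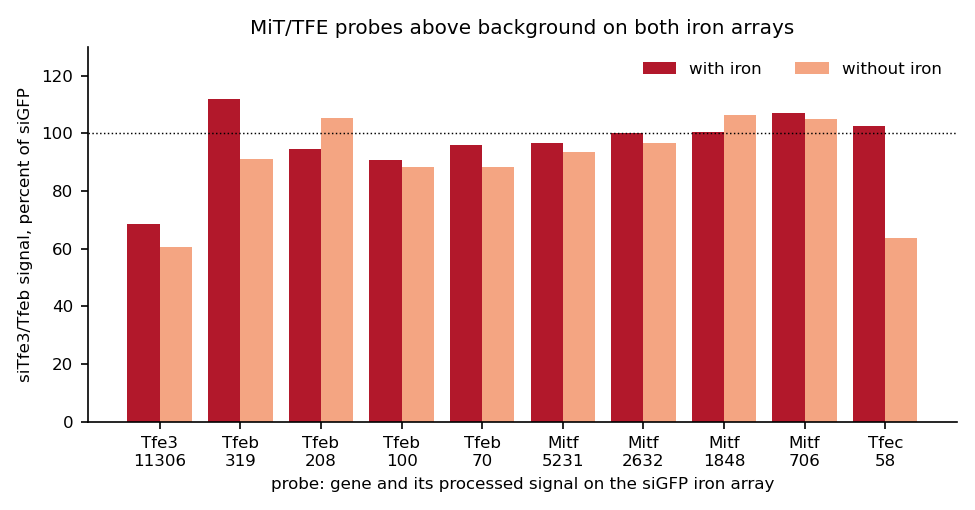
Each pair of bars is 1 probe of Tfe3, Tfeb, Mitf or Tfec that was above background on both iron arrays. Bar height is the scaled signal of the siTfe3/Tfeb array as a percent of its siGFP counterpart, with iron (dark) and without iron (light), and the number under each gene is the probe's processed signal on the siGFP iron array. Tfe3 stood at 68.4% with iron and 60.6% without, while the Tfeb probes lay between 88.3% and 112%.

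More genes were lower than higher with the siRNA against Tfe3/Tfeb under iron. Among 14064 genes above background on both arrays, 189 were at least 2-fold lower (1.34%) and 120 at least 2-fold higher (0.853%). Genes above background on 1 array only have a bound, the fold against the lowest signal that counts as above background there, and with these the counts were 264 lower (1.77%) and 147 higher (0.984%) of 14944. By that count 35.8% of 2-fold genes were higher, and 51.5% were with each array centred on its median, which shifted the median of all genes by 0.12. In the scaling used throughout, the median of all genes was -0.02 and 47.2% of genes lay above 0, so list medians are to be read against these values. Counts of 2-fold members in a list are to be read against 1.34% of all genes lower and 0.853% higher. A short list without any is near these shares. The lists were chosen with earlier results of these data known, so a share above these values is not independent support. RNA came from whole cultures, in which fewer cells of a kind and less RNA per cell cannot be told apart.

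Of the 15 genes furthest below their siGFP iron signal, 4 are in the list of lipid-laden macrophage genes, namely Itgax, Pdpn, Mmp12 and Cd36. That list holds 25 of the 14064 genes measured on both arrays. It was chosen with earlier results of these data known, so the overlap is no independent support. Itgax, the integrin chain known as CD11c, had a signal of 373 on the siTfe3/Tfeb iron array and 4514 on the siGFP iron array, and without iron 99.2 in siTfe3/Tfeb and 2108 in siGFP. Both siTfe3/Tfeb arrays lay below both siGFP arrays, and the difference with iron was 11.4-fold lower (log2 -3.51, spot SD 0.095; probe at chr7:135294052-135294111 on mm9). A second Itgax probe gave only -0.39, so the 2 probes disagree in size, and their mean was -1.95. Pdpn (podoplanin, a mucin-like membrane glycoprotein) read 262 on the siTfe3/Tfeb iron array and 2863 on the siGFP iron array, 10.3-fold lower, and without iron 49.2 in siTfe3/Tfeb and 402 in siGFP. The siGFP iron array was far above the other 3 for this gene. Mmp12, the macrophage elastase, read 211 on the siTfe3/Tfeb iron array and 2233 on the siGFP iron array, 9.99% after scaling, and its 2 other probes gave -2.91 and -2.80.

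Chemokines and protease inhibitors were also among the 15 genes that were lowest. Ccl2, the chief monocyte attractant, had 2502 on the siTfe3/Tfeb iron array and 19052 on the siGFP iron array, a log2 difference of -2.85 with a spot SD of 0.0637. Without iron it had 616 in siTfe3/Tfeb and 4289 in siGFP, so each siTfe3/Tfeb array was below either siGFP array. Ccl6, another chemokine of the CC class, was 5.37-fold lower at 807 on the siTfe3/Tfeb iron array and 4583 on the siGFP iron array. The stefin family of cysteine protease inhibitors gave 3 of the 15: Stfa2l1 (-3.01), Cstdc4 (-2.81) and Cstdc5 (-2.72). The genes are near copies of one another. Their probe sequences were compared and no pair of the 3 was near-identical, but binding of a probe to the other transcripts was not tested. Serpinb10, a serine protease inhibitor of the serpin family, was at -2.80 with a spot SD of 0.47, since it read 29.8 on the siTfe3/Tfeb iron array.

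The rest of these 15 were receptors, a transporter and secreted proteins. Cd36, the scavenger receptor for oxidised lipoproteins, read 71.2 on the siTfe3/Tfeb iron array and 432 on the siGFP iron array (-2.52), and Cd5l, a secreted macrophage protein that binds lipids and microbial products, was at -2.34. The lectin receptors Clec4b1 (-2.40) and Siglecf (-2.38), the serotonin transporter Slc6a4 (-2.43) and the extracellular protein Ccdc80 (-2.69) completed the group. For all 15 genes both siTfe3/Tfeb arrays were below both siGFP arrays in scaled signal. The order of the 2 iron arrays was fixed by the choice of these genes. Without iron 14 of the 15 were also at least 2-fold lower, against 1.84% of all genes measured on both arrays without iron. The exception was Siglecf, at -0.70.

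Larger folds were bounded rather than measured. Gm10639 read 5.1 on the siTfe3/Tfeb iron array, not well above background, and 399 on the siGFP iron array, at least 17.8-fold lower. Its probe shares 53 of 60 bases with that of Gsta2, a glutathione S-transferase, which was at least 7.88-fold lower (4.5 on the siTfe3/Tfeb iron array and 177 on the siGFP iron array), so the 2 may report 1 transcript. Neither was above background without iron on either array. Ccl24, an eosinophil attractant, was lower by a log2 difference of at least 3.71 in size (bound -3.71), and Ppbp, a platelet-type chemokine of the CXC class, was at least 9.46-fold lower. AI606473, a gene with no assigned function here, was at least 11.8-fold lower.

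**Figure D2:**
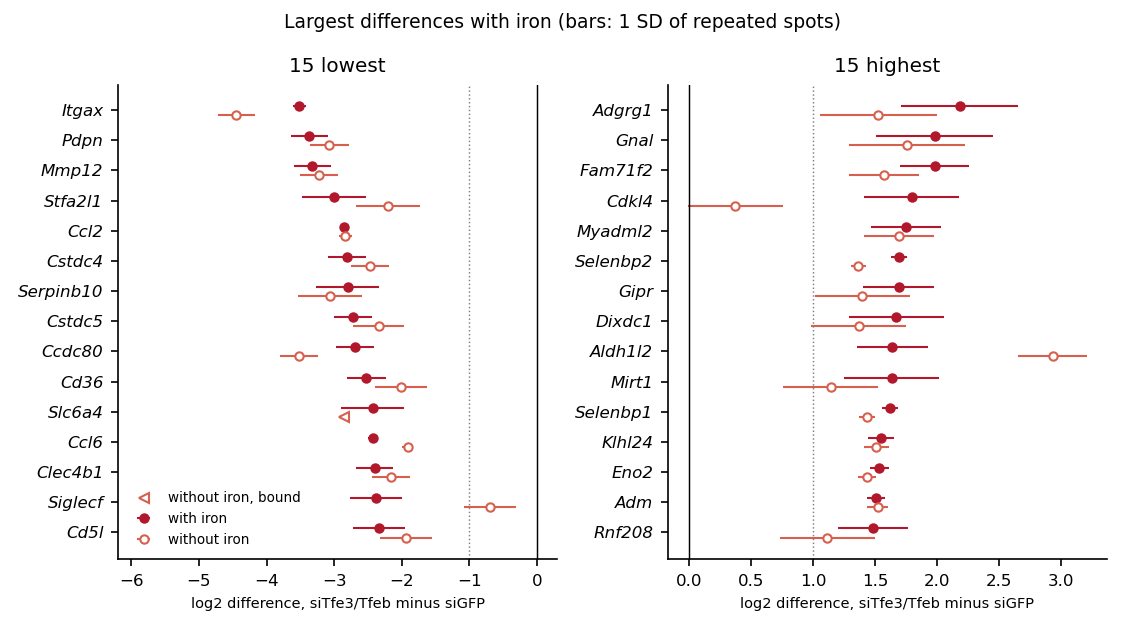
Points give the log2 difference, siTfe3/Tfeb minus siGFP, of the 15 genes with the largest difference in each direction with iron (filled), beside the same genes without iron (open; a triangle marks a bound). Bars are 1 SD of repeated spots and the dotted line is 2-fold. With iron the genes run from Itgax at -3.51 to Cd5l at -2.34 on the left and from Adgrg1 at 2.18 to Rnf208 at 1.48 on the right; Siglecf and Cdkl4 lie inside 2-fold without iron.

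Of 14 measured genes of the CC and CXC chemokine list, 6 were at least 2-fold lower (42.9%, against 1.34% of all genes), none was 2-fold higher, and the median was -0.83. Beyond Ccl2 and Ccl6, these were Ccl7 (-2.23), Pf4 (platelet factor 4; -1.40), Ccl9 (-1.20) and Ccl12 (-1.15), and Ccl24, Ppbp and Cxcl14 were lower by bounds. The macrophage inflammatory proteins Ccl4 (-0.85) and Ccl3 (-0.47) and the neutrophil attractant Cxcl2 (-0.82) were lower by less than 2-fold, while Ccl5 (0.05) and Cxcl16 (0.48) were not lower.

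Cytokine genes downstream of NF-kB, the transcription factor of Toll-like receptor signalling, were split. Of 35 measured, 6 were at least 2-fold lower (17.1%, against 1.34% of all genes), of which Ccl2, Ccl7 and Ccl9 are also in the chemokine list. The others were Il1b, the cytokine interleukin 1 beta, with 120 on the siTfe3/Tfeb iron array and 497 on the siGFP iron array (-1.97), Il1rn, the antagonist of its receptor, with 7040 on the siTfe3/Tfeb iron array and 24493 on the siGFP iron array (-1.72), and Tnf (-1.28). The factor's own subunits and inhibitors were close to 0, with Nfkb1 at -0.23, Nfkbia at 0.01 and Relb at 0.28. Cd40, the receptor for T cell help, was higher at 1.23, and Nos2, the inducible nitric oxide synthase, was at 0.91. The list's median was -0.04 with this scaling and 0.08 with median centring.

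Interferon-stimulated genes lay mostly below 0, few of them by 2-fold. Of 48 measured genes, 42 were below 0 with a median of -0.34, and 4 were at least 2-fold lower (8.33%, against 1.34% of all genes). These were the RNA-binding antiviral proteins Ifit3b (-1.55), Ifit1 (-1.49) and Ifit3 (-1.41), of which Ifit3 and Ifit3b are near copies, and Gbp2 (-1.18), an interferon-induced GTPase. Ifit3 read 719 on the siTfe3/Tfeb iron array and 2019 on the siGFP iron array, and without iron 674 in siTfe3/Tfeb and 2950 in siGFP. Rsad2 (viperin; -0.86), Cxcl10 (-0.79), Mx1 (-0.75) and Isg15 (a ubiquitin-like modifier; -0.64) lay below 0 as well, and Ifi27l2a (0.37) was the highest of the list. Cxcl10 and Ifi27l2a each had 1 other probe above background on both arrays, which did not share the sign, so their directions are not settled. The interferon-response factors Irf7 (-0.39) and Irf9 (0.01) differed by less than 2-fold.

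Egr2, a zinc-finger factor of macrophage activation, read 618 on the siTfe3/Tfeb iron array and 2627 on the siGFP iron array (-2.01), and Egr3 was at -1.33. Egr1 (-0.85), Fosl1 (-0.82) and Fos (-0.76) were lower by less than 2-fold, and Atf3 (0.66) and Klf4 (0.68) were higher by less than 2-fold. Plaur, the urokinase receptor that was listed with them as a MAP kinase target, had 1969 on the siTfe3/Tfeb iron array and 6954 on the siGFP iron array (-1.74). The MAP kinase phosphatases Dusp5 (-1.18) and Dusp2 (-1.05) were the remaining members at least 2-fold lower, so that 5 of 30 were 2-fold lower (16.7%, against 1.34% of all genes) and none 2-fold higher (against 0.853%), with a median of -0.25.

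Among the genes of osteoclasts and lipid-laden macrophages a few members differed greatly and most hardly at all. Of 21 osteoclast genes, 17 lay below 0 and 3 were at least 2-fold lower (14.3%, against 1.34% of all genes), with 1 more, Src, lower by a bound. The 3 were Atp6v0d2, a subunit of the proton pump that also aids cell fusion (-2.11), the gelatinase Mmp9 (-1.96) and Ocstamp, a fusion protein (-1.84). The collagenase cathepsin Ctsk (-0.98) and Acp5, the tartrate-resistant acid phosphatase (-0.73), were lower by less, and Nfatc1, the leading factor of osteoclast differentiation, was at 0.34. Of 25 genes of lipid-laden macrophages, 5 were at least 2-fold lower (20.0%, against 1.34% of all genes), namely Itgax, Pdpn, Mmp12, Cd36 and the fatty acid carrier Fabp4 (-1.20). Gpnmb (-0.13), Trem2 (-0.14), Apoe (-0.05) and Plin2 (-0.11) were near the median of all genes, and so was the list, at -0.13.

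Of 25 measured surface receptors of the C-type lectin, TREM and Siglec families, 5 were at least 2-fold lower (20.0%, against 1.34% of all genes) and 19 lay below 0. The 5 were Clec4b1, Siglecf, Cd200r4 (-1.54), Treml2 (-1.30) and the C-type lectin Clec5a (-1.06). A second probe gave -0.91 for Clec4b1 and -0.68 for Treml2. Treml1 was the highest at 0.84. General macrophage identity genes had a median of -0.12, with Mertk, a receptor for dying cells, at -1.06 from a dim probe (26.1 on the siTfe3/Tfeb iron array and 57.7 on the siGFP iron array) and the Fc receptor Fcgr1 at -0.89. Csf1r (-0.18), Adgre1 (F4/80; -0.15), Cd68 (0.03) and Itgam (CD11b; 0.11) differed by little.

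**Figure D3:**
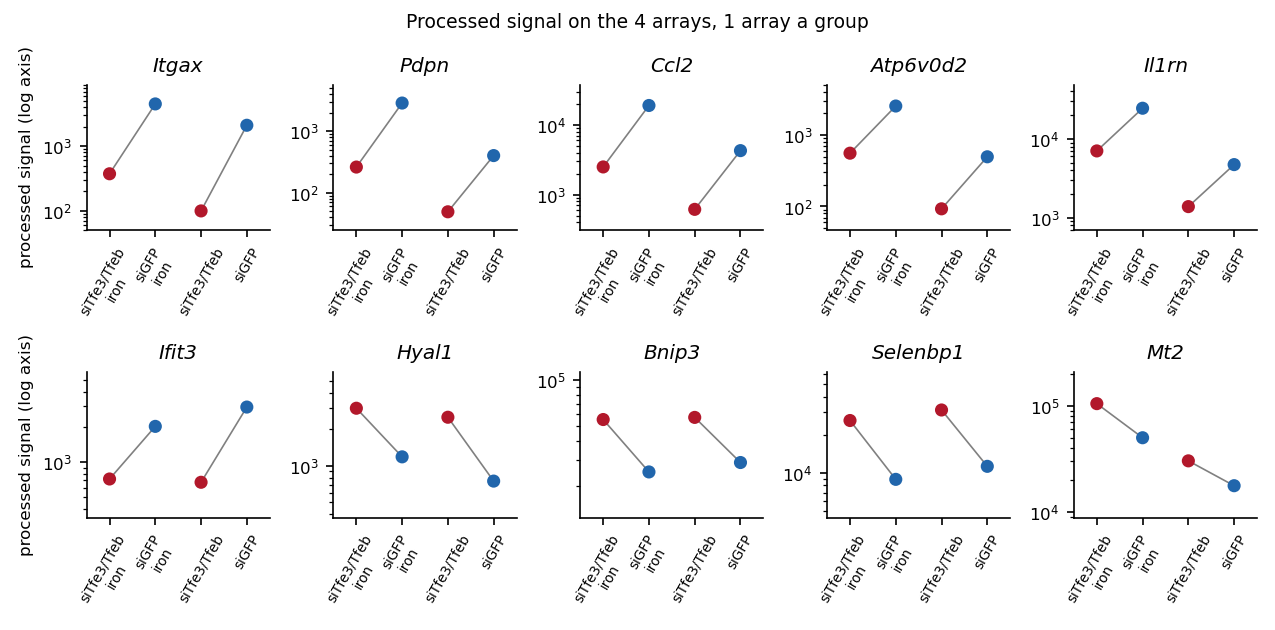
Each panel gives the processed signal of 1 gene on a log axis, from left to right on the arrays siTfe3/Tfeb iron, siGFP iron, siTfe3/Tfeb and siGFP, with 1 array a group and lines joining the 2 arrays of a comparison. Itgax, Pdpn, Ccl2, Atp6v0d2, Il1rn and Ifit3 were lower on the siTfe3/Tfeb array of each pair, and Hyal1, Bnip3, Selenbp1 and Mt2 were higher.

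Lysosomal genes, the best-known targets of the MiT/TFE factors, were mostly unequal by little. Of 44 lysosomal hydrolases, all above background on both arrays, 27 were above 0 and 17 below, with a median of 0.07. Hyal1, a hyaluronidase, was the 1 member 2-fold different, with 2988 on the siTfe3/Tfeb iron array and 1187 on the siGFP iron array (1.41, with 1.57 and 1.67 by its other probes). Naglu (0.46) and Gm2a (0.42), which act in the breakdown of glycosaminoglycans and glycolipids, were higher by less, and Aga (-0.41) and Gusb (-0.40) were lower by less. Acid alpha-glucosidase (Gaa; 0.03) and sphingomyelinase (Smpd1; 0.06) were near 0.

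Of 34 lysosomal membrane proteins 16 were above and 18 below 0, none was 2-fold different, and the median was -0.0034 with this scaling and 0.12 with median centring. Lamp1 (0.08), Lamp2 (-0.01) and the calcium channel Mcoln1 (0.07) were within 0.1 of 0, whereas Laptm4b (-0.90) and the sugar-phosphate transporter Slc37a2 (-0.84) were the lowest. Of 19 subunits of the vacuolar ATPase, the proton pump that acidifies lysosomes, 15 were below 0 with a median of -0.16. Atp6v0d2 alone of these was 2-fold lower, at 557 on the siTfe3/Tfeb iron array and 2544 on the siGFP iron array, with -2.11 by this probe and -2.52 by a second. Atp6v0a1 was next (-0.81), while Atp6v0d1, the widely expressed form of the d subunit, was at 0.03.

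Cathepsins, the lysosomal proteases, ranged from Ctsk at -0.98 to Ctsf at 0.88. None of 12 reached 2-fold, against 1.34% of all genes lower and 0.853% higher. The abundant Ctsd (-0.12), Ctsb (-0.12), Ctsl (0.09) and Ctss (-0.01) were near the median of all genes. Among 21 genes of the folliculin and Rag GTPase pathway, which ties lysosomal nutrients to mTORC1, Castor1, an arginine sensor, was 2-fold higher (1.40; 114 on the siTfe3/Tfeb iron array and 45.7 on the siGFP iron array, spot SD 0.38). Rragd (-0.31), Flcn (-0.28) and Fnip2 (0.21) differed by less.

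Promoters were searched for the E-box to see whether genes that differed hold it more often. The 250 bases before the start of 4 genes are printed. They were taken only from genes whose promoter holds CACGTG, so its presence in all 4 was fixed by the choice. Among those they are a gene much lower, a zinc-finger factor that was lower, a mitophagy receptor that was higher and a lysosomal channel that hardly differed. CACGTG, which reads the same on both strands, is in capitals (RefSeq, GRCm38.p6).
Pdpn, chr4:143299565-143299814, minus strand: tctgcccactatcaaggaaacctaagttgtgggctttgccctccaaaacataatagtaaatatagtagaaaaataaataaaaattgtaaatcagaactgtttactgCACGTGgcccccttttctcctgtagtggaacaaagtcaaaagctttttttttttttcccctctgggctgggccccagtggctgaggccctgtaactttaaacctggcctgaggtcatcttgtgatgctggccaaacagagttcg
Egr2, chr10:67535249-67535498, plus strand: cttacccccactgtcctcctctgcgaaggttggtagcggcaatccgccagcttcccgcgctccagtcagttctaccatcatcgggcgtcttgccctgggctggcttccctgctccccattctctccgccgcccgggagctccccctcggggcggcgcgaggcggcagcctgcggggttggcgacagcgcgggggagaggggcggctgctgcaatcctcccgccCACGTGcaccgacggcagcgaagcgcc
Bnip3, chr7:138909507-138909756, minus strand: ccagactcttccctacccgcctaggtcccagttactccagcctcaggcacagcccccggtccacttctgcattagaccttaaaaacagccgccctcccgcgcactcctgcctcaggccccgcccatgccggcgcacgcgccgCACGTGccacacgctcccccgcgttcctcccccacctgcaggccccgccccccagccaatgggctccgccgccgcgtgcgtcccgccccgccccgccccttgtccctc
Mcoln1, chr8:3500269-3500518, plus strand: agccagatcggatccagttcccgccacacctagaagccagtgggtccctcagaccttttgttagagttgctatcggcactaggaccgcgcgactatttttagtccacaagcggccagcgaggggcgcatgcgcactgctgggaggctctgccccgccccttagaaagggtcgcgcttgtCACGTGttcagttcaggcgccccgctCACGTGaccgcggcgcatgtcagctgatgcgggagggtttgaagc

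The first E-box of these promoters began 144 bases before the start in Pdpn, 27 in Egr2, 108 in Bnip3 and 71 in Mcoln1, and the second of the pair in Mcoln1 lies within TCACGTGA. Over windows of 300 bases (250 before to 50 after the start), CACGTG was found in 17 of 147 promoters of 2-fold lower genes (11.6%) and 11 of 101 of 2-fold higher genes (10.9%). It was found in 11.3% of the 11173 promoters of all genes measured on both arrays, so the shares differ by under 1 percentage point, and in 8.09% of all 27025 promoters of the table. The longer TCACGTGA, each match of which is also a match of CACGTG, stood in 2 of 147 promoters of lower genes (1.36%). It stood in 1 of 101 of higher genes (0.990%) and 223 of 11173 of measured genes (2.00%). Counts of 2 and 1 are too few to compare these shares. Of the lysosomal genes measured, 13 had TCACGTGA, among them Mcoln1 (0.07), Ctsa (0.24), Atp6v0e (-0.37), Cln3 (-0.33) and Gnptg (-0.37). None of the 13 was 2-fold different, against 1.34% of all genes lower and 0.853% higher. A second probe of Atp6v0e gave 0.36, so its direction is not settled. A match describes letters in a window, not binding.

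Autophagy genes lay mostly above 0 by less than 2-fold. Of 41 measured, 31 were above 0 with a median of 0.25, and 2 were at least 2-fold higher (4.88%, against 0.853% of all genes). Bnip3, a mitophagy receptor of the outer mitochondrial membrane, read 55187 on the siTfe3/Tfeb iron array and 24902 on the siGFP iron array (1.23, spot SD 0.0637), and Wipi1, which binds the lipid of forming autophagosomes, read 1321 on the siTfe3/Tfeb iron array and 626 on the siGFP iron array (1.16). The other probes of Wipi1 gave 0.42 and 0.84, and the mean over its probes, 0.81, is under 2-fold. Without iron both were higher in siTfe3/Tfeb too, by 0.95 and 1.20. The related receptor Bnip3l (0.79) and the initiating kinase Ulk1 (0.60) followed, Sqstm1 (p62) was at 0.19, and Map1lc3b (LC3B), the conjugated autophagosome protein, was at -0.18.

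The 15 genes furthest above their siGFP iron signal were a mixed set. Adgrg1, an adhesion G protein-coupled receptor, had 103 on the siTfe3/Tfeb iron array and 24.1 on the siGFP iron array (4.53-fold, log2 2.18, spot SD 0.47), and Gnal, a G protein alpha chain, had 93.6 and was 3.94-fold above the 25.1 of the siGFP iron array. Both are dim, so their folds are rough. Selenbp1 and Selenbp2, near-copy selenium-binding proteins of which Selenbp1 is a methanethiol oxidase, were bright. Selenbp1 read 25890 on the siTfe3/Tfeb iron array and 8909 on the siGFP iron array, 3.07-fold higher, and Selenbp2 was 3.23-fold higher. Without iron Selenbp1 read 31337 in siTfe3/Tfeb and 11281 in siGFP, so both siTfe3/Tfeb arrays were above both siGFP arrays.

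The other members were spread over functions. Aldh1l2, the mitochondrial enzyme of folate metabolism, was at 1.64, the incretin receptor Gipr at 1.69 (0.52 by a second probe), Eno2, an enolase of glycolysis, at 1.53, and Adm, the vasodilator peptide adrenomedullin, at 1.51. Klhl24, an adaptor of a ubiquitin ligase, was at 1.55, Dixdc1, a protein of Wnt signalling, at 1.67, the kinase Cdkl4 at 1.79 and Fam71f2, Myadml2, the non-coding Mirt1 and Rnf208 between 1.48 and 1.98. For all 15 both siTfe3/Tfeb arrays were above both siGFP arrays, though the order of the 2 iron arrays was fixed by the choice of genes. Without iron 14 of the 15 were also 2-fold higher, against 1.39% of all genes measured on both arrays without iron. The exception was Cdkl4 at 0.37. Beyond these, bounds ran from at least 4.71-fold to at least 5.87-fold higher, in Nrbp2, Pycr1, Gm8633, Pik3c2g and 1700019D03Rik, of which Pycr1 had another probe of opposite sign.

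Genes of glycolysis and hypoxia lay mostly above 0. Of 35 measured, 32 were above 0, 5 were at least 2-fold higher (14.3%, against 0.853% of all genes) and the median was 0.32. Beside Eno2, Adm and Bnip3, these were Vegfa, the vascular growth factor, with 2241 on the siTfe3/Tfeb iron array and 1047 on the siGFP iron array (1.18), and the collagen prolyl hydroxylase subunit P4ha2 (1.05). The 3 other probes of Vegfa lay between 0.26 and 0.87, and the mean over its probes, 0.77, is under 2-fold. Ndrg1 (0.93), the oxygen-sensing hydroxylases Egln3 (0.92) and Egln1 (0.83), and the kinase Pdk1 (0.74), which restrains pyruvate use in mitochondria, were higher by less than 2-fold. The core enzymes Gapdh (0.29), Pgk1 (0.23), Pkm (0.19) and Ldha (0.09) differed less, and the transcript of Hif1a, the hypoxia factor regulated as a protein, was at -0.17.

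**Figure D4:**
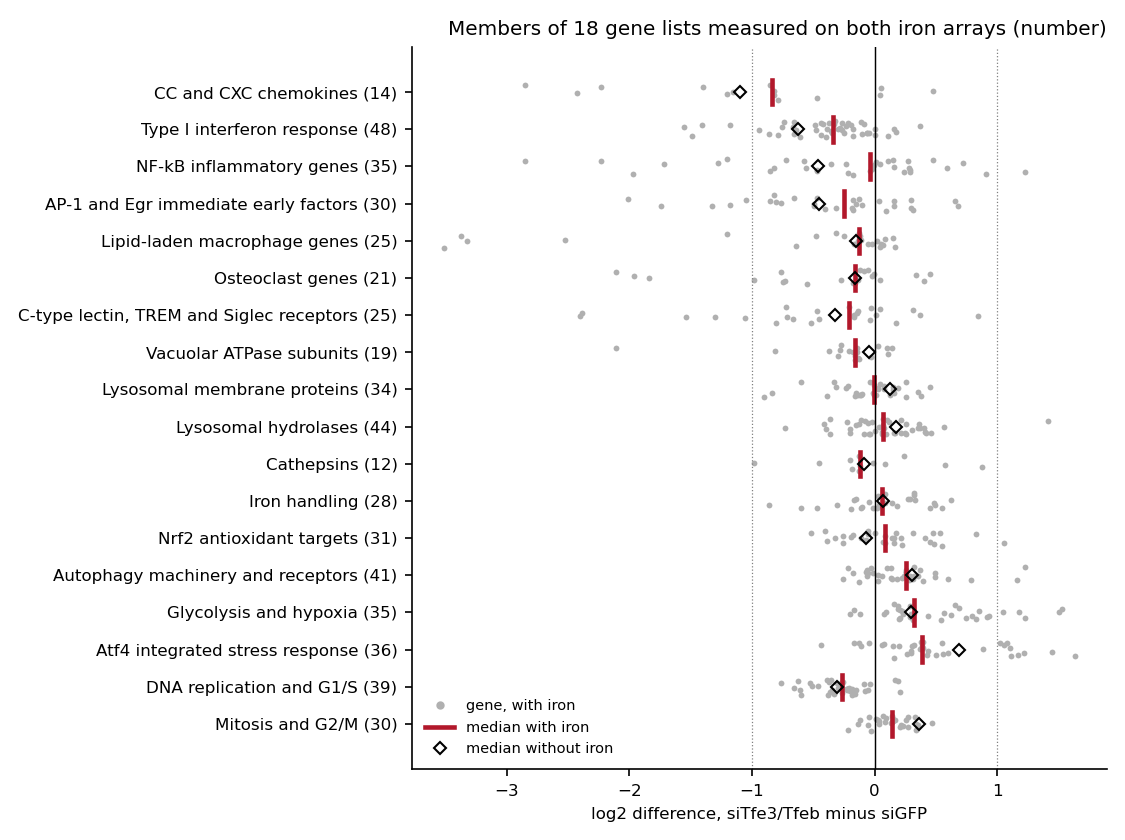
Each grey point is the log2 difference with iron, siTfe3/Tfeb minus siGFP, of 1 member of a gene list measured on both iron arrays (number in brackets), the red bar is the list's median with iron and the diamond its median without iron. Dotted lines mark 2-fold. Chemokines have the lowest median at -0.83 and genes of the Atf4 response the highest at 0.39. Lysosomal hydrolases sit at 0.07, lysosomal membrane proteins at -0.0034, cathepsins at -0.12 and vacuolar ATPase subunits at -0.16.

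Targets of Atf4, the factor of the integrated stress response that drives amino acid synthesis and import, had the highest median of the lists. Of 36 measured, 31 were above 0, the median was 0.39 and 9 were at least 2-fold higher, against 0.853% of all genes. These were Aldh1l2, Gdf15 (a stress cytokine; 1.44), Pck2 (the mitochondrial PEP carboxykinase; 1.22), Chac1 (which degrades glutathione; 1.17), the pseudokinase Trib3 (1.11), the glycine transporter Slc6a9 (1.11), Cth (1.08) and Cbs (1.02) of cysteine synthesis, and Ddit4, an inhibitor of mTORC1 (1.06). Pck2 read 3930 on the siTfe3/Tfeb iron array and 1784 on the siGFP iron array, and without iron 9273 in siTfe3/Tfeb and 1962 in siGFP. Atf4 itself was at 0.37, Ddit3 (CHOP) at 0.43 and Asns (asparagine synthetase) at 0.20.

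Related lists were shifted less. Cytosolic aminoacyl-tRNA synthetases, which charge tRNAs, were above 0 in 15 of 20 cases with a median of 0.21 and no member 2-fold different, led by Vars (0.46) and Cars (0.42). Genes of protein folding in the endoplasmic reticulum were below 0 in 22 of 30 cases with a median of -0.28, among them Selenos (-0.91), Manf (-0.81) and Creld2 (-0.79), and the oxidase Ero1a was the 1 member 2-fold higher (1.22). Heat shock chaperones were below 0 in 16 of 20 cases with a median of -0.24, and Cryab (-1.47) and Hspa1b (-1.12) were 2-fold lower.

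Iron-handling genes differed less than 2-fold in all 28 measured cases, with a median of 0.06. Of all genes only 1.34% were 2-fold lower and 0.853% higher, so a list of this size without any is near that share. Slc40a1 (ferroportin, the iron exporter) was at 0.50, Hmox1 (haem oxygenase) at 0.45 and Slc48a1, a haem transporter of the lysosome membrane, at 0.62. Tfrc, the transferrin receptor for iron uptake, read 142 on the siTfe3/Tfeb iron array and 274 on the siGFP iron array (-0.86, spot SD 0.38, and -0.78 by a second probe), and Slc39a14, an importer of zinc and iron, was at -0.60. The ferritin chains Fth1 (0.09) and Ftl1 (0.08) and the ferritinophagy receptor Ncoa4 (0.32) were near or somewhat above 0. Hamp (hepcidin) was among 8 members without a value because neither array was above background.

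Antioxidant and metal-binding genes were split. Of 31 measured targets of the antioxidant factor Nrf2, Gstm1 was 2-fold higher, with 3599 on the siTfe3/Tfeb iron array and 1826 on the siGFP iron array (1.06), and the median was 0.09. Gsta2 and Gsta3 were 2-fold lower by bounds, and Slc7a11 (the cystine transporter; 0.55), Gclm (0.41) and Txnrd1 (-0.17) lay between. Mt2, a metallothionein, read 105044 on the siTfe3/Tfeb iron array and 50053 on the siGFP iron array (1.15), Mt1 was at 0.50 and the zinc importer Slc39a4 at 1.06.

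Cell cycle genes differed by little and in opposite directions by phase. Of 39 genes of DNA replication 36 were below 0, with a median of -0.26 and no measured member 2-fold different, and Rrm2 (-0.76), Orc1 (-0.65) and Mcm4 (-0.63) were the lowest. Of 30 genes of mitosis 24 were above 0 with a median of 0.14, led by the cyclin Ccnb2 (0.47). Of 27 targets of p53, Trp53inp1 was 2-fold higher (1.20, but 0.45 by a second probe), and the genes of cell death Bbc3 (0.84) and Pmaip1 (0.70) followed. Sterol synthesis had a median of -0.07 with this scaling and 0.05 with median centring, and respiratory chain subunits one of 0.02.

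Most of the differences with iron were also present without iron. Over 13859 genes above background on all 4 arrays, 176 were 2-fold lower with iron and 253 without, and 124 were in both sets, 70.5% of the first and 49.0% of the second. Of those 2-fold higher, 115 with iron and 189 without, 75 were shared, 65.2% and 39.7%, and no gene was 2-fold in opposite directions. Across these genes, which are not independent replicates, the differences with and without iron had a Pearson r of 0.776 and a Spearman rho of 0.729 between comparisons that share no array but lie on 1 slide. Of all genes 1.39% were 2-fold higher without iron and 1.84% lower, so both counts were smaller with iron.

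**Figure D5:**
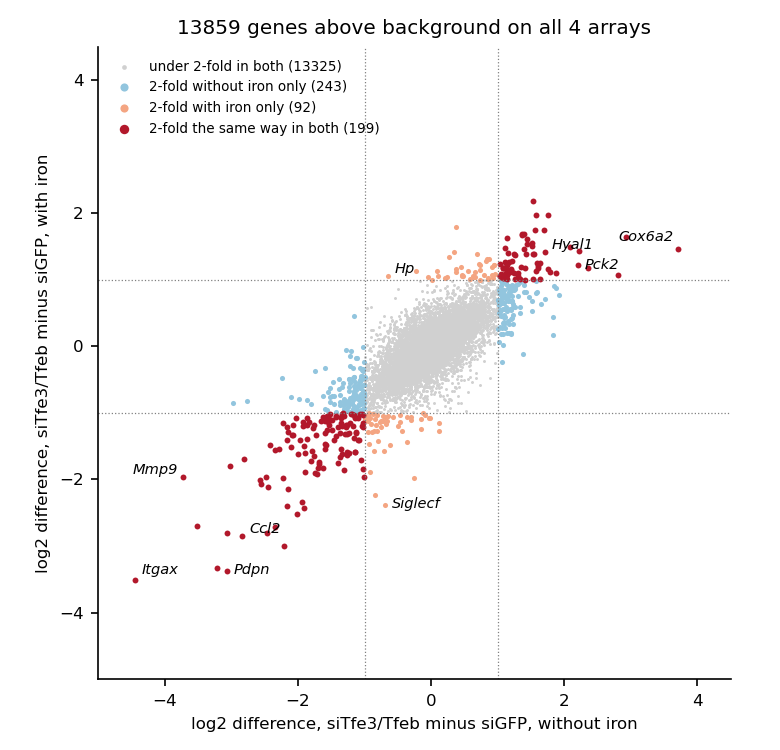
Each point is 1 of 13859 genes above background on all 4 arrays, with its log2 difference siTfe3/Tfeb minus siGFP with iron on the vertical axis and without iron on the horizontal axis. Dotted lines mark 2-fold and colours whether that was reached with iron, without iron or in both. Itgax, Pdpn and Ccl2 lie at the lower left, Hyal1 and Pck2 at the upper right, and the corners of opposite sign hold no gene 2-fold in both.

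Sizes with and without iron differed by list. The interferon list had a median of -0.34 with iron and -0.62 without, with 4 and 15 of 48 genes 2-fold lower. The Atf4 list had a median of 0.39 with iron and 0.69 without. With iron 9 of 36 measured genes were 2-fold higher and without iron 12 of 36, and 35 genes were measured in both. The chemokines had -0.83 with iron (14 measured genes) and -1.10 without (15). The immediate early factors had -0.25 with iron (30 measured genes) and -0.46 without (29). The median of glycolysis and hypoxia genes was 0.32 with iron and 0.30 without, and that of autophagy genes 0.25 and 0.31. Single genes show the range: Fosl1 differed by -0.82 with iron and -2.77 without, Egr1 by -0.85 and -2.98, Mmp9 by -1.96 and -3.74, and Cox6a2, a muscle-type subunit of cytochrome oxidase, by 1.47 and 3.71. Pilra, an inhibitory receptor of myeloid cells, differed by -2.15 in both comparisons, though 1 of its 2 other probes had the opposite sign with iron. Ccl7 was further from 0 with iron, at -2.23 with iron and -0.84 without. None of these pairs of values was tested against each other, since each comparison holds 1 array a side.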

How the data were processed

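Gene expression was measured on 4 Agilent 1-colour arrays of RAW264 cells, all on 1 slide and in 1 scan run per the file headers. The deposited scanner files hold a processed intensity per spot, background-subtracted and detrended by Agilent Feature Extraction 12.0.3.1 per the file headers, with no scaling between arrays. A series matrix deposited by the authors is on a log2 scale. The difference between the 2 iron arrays in it followed the scanner files with a slope of 1.0 over 56602 probes, and each probe's median over the arrays was 0, which settles its scale, centring and direction. Its column medians were 0.0013 (siTfe3/Tfeb iron), 0.022 (siGFP iron), -0.087 (siTfe3/Tfeb) and -0.0042 (siGFP).

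From 62976 spots, control spots and 3 outlier-flagged probes were left out, repeated spots averaged, and log2 signal taken minus the array's 75th percentile. Of 56605 probes, 33767 were named by accession and 10176 by symbol through RefSeq (GRCm38.p6, names only), and 12662 were unnamed. The probe brightest over the 4 arrays stood for a gene. A gene counted where the brighter array was well above background (flag of the scanner). If the other was not, the fold is a bound against the lowest such signal there (log2 level -4.80 on the siTfe3/Tfeb iron array and -4.81 on the siGFP iron array). No spot was saturated. Spot SD came from 297 repeated probes, and for it positive control spots outside the array corners were not left out. Most of these were bright, and the SDs of 0.545 and 0.383 for dim levels come from 17 and 44 probe readings. The SD of 0.188 for levels between -2 and -1 came from 1 reading and was not used. Those levels took the SD of the next dimmer level.

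The groups hold 1 array each, so the comparison under iron was not tested. An additive fit of siRNA and iron over the 4 arrays, which would take the difference between both comparisons as its error, was not used. Named genes are the MiT/TFE family, the 15 largest differences a direction (measured on both arrays, level above -3, no identifier-only name, no other probe of opposite sign), up to 4 members a list with the largest difference, up to 5 bounds a direction, and up to 12 genes a direction 2-fold the same way with and without iron. Other list members are given as examples of their list and were chosen after their values were seen. The comparison and all 39 gene lists were chosen with earlier results of these data known. The procedure was tested on simulated data in which the spot SD was the only noise and all genes counted as above background. That test does not cover differences between cultures, extractions or labellings. Alternatives were other normalizations (quantile, median centring, limma's normexp with an offset of 50), the series matrix, other background filters, other rules for several probes and other folds. Python 3.11.15, numpy 2.4.6, pandas 2.3.3, R 4.3.3 and limma 3.58.1 were used. A few list members are not reported here.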

Additional observations from a re-analysis of the deposited data

Results flagged for a closer look

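Of the named genes measured on all 4 arrays, 2 had differences of opposite sign with and without iron that were each larger than 2 spot SDs. Hp (haptoglobin, a haemoglobin-binding acute phase protein) was at 1.06 with iron and -0.64 without, and Saa3 (serum amyloid A3, another acute phase protein) at 0.59 and -0.90, gaps of 1.70 and 1.49. Hp read 474 on the siTfe3/Tfeb iron array and 241 on the siGFP iron array, and without iron 493 in siTfe3/Tfeb and 749 in siGFP, so the siGFP iron array was the low one. Saa3 read 684 on the siTfe3/Tfeb iron array and 482 on the siGFP iron array, and without iron 827 in siTfe3/Tfeb and 1506 in siGFP. Endothelial markers had a median of -0.40 with iron and 0.30 without. That list rests on 3 measured members, namely Vwf (-0.84 with iron, spot SD 0.38), Pecam1 (-0.40) and Egfl7 (0.18). None of these 3 opposite signs was tested, since each side is 1 array.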

How the results depend on the processing

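Counts moved with the processing more than values did. Of 2-fold genes, 147 were higher and 264 lower; normexp gave 50 higher and 99 lower with the 75th percentile, and 52 and 96 with quantile normalization. Normexp adds an offset, which by construction pulls dim genes toward 0. The series matrix without bounds gave 485 lower and a share of higher genes of 28.6%; without a background filter there were 453 higher and 1546 lower (22.7% higher); both of these leave out the bound by construction. With both arrays above background and a level above -2, 90 were higher and 137 lower. A 1.5-fold threshold gave 628 higher and 993 lower, and a 3-fold threshold 23 and 80. Higher genes made up 35.8% of 2-fold genes, against 40.9% under quantile normalization and 51.5% under median centring, and the cause was not tested.

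Median centring, which shifts every difference by 0.12, gave -0.43 for Tfe3 and 0.28 for Tfeb, and medians of 0.19 for hydrolases, 0.12 for lysosomal membrane proteins, -0.041 for the vacuolar ATPase, 0.37 for autophagy, -0.22 for interferon, 0.51 for Atf4 and 0.44 for glycolysis and hypoxia. Tfe3 was at -0.48 with normexp and quantile normalization. With all probes averaged, Tfeb was at -0.030, glycolysis and hypoxia at 0.43, and Pycr1, a bound of 2.31, at -0.23, since its other probe has the opposite sign. Chemokines had -1.15 in the series matrix, where 3 genes given elsewhere as bounds enter. Of the named genes measured on both arrays, 31 of 37 lower and 23 of 33 higher stayed 2-fold under each alternative that gave a value, and none of them changed sign. No paired analysis was possible because each group holds 1 array. Signal over background limits dim genes, with a spot SD up to 0.545. Of 1665 genes at a level of -3 or below, 9 were 2-fold higher and 16 lower. Between levels of -3 and 0 there were 71 higher and 103 lower of 3879, and above 0 there were 40 and 70 of 8520. Over all measured genes the shares were 0.853% higher and 1.34% lower. The level is that of the brighter array. Both arrays had to be above background, so genes at -3 or below had little room for a 2-fold difference. The low count there was thus partly set by the filter. More 2-fold genes lay between -3 and 0 than above 0, though fewer genes were measured there.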
